A study of Homo sapiens with 6 samples.

Results

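The proteasome genes of MDA-MB-231 cells were followed after knockdown of USP32, a ubiquitin-specific protease. They were taken from the deposited tables by symbol, as every row that begins with PSMA, PSMB, PSMC, PSMD, PSME, PSMF or PSMG and a digit, together with POMP. This gave 50 of the 17646 listed genes. Of these, 48 encode subunits, activators, an inhibitor or assembly factors of the proteasome, and 2 (PSMC3IP and PSME3IP1) share a symbol stem with a subunit but encode other proteins. MDA-MB-231 is an established human line of triple negative breast cancer. The groups were cells given an siRNA against USP32 (siUSP32) and cells given a control siRNA (siControl), each profiled by RNA sequencing at 48 h with 3 libraries. No other treatment is named in the labels for either group. The labels do not say whether the libraries came from separate cultures, so the p-values below measure the spread between libraries, which may be technical. All libraries came from bulk RNA, in which fewer cells of a type and less RNA per cell cannot be told apart.

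The proteasome is the cell's main ATP-dependent protease for ubiquitin-tagged proteins. Its barrel-shaped core is built from stacked rings of alpha and beta subunits, with the protein-cutting sites inside the beta rings. A regulatory particle on the end of the barrel binds tagged proteins, removes the ubiquitin and unfolds them with a ring of ATPases. Dedicated chaperones put these parts together. Immune cells and interferon-treated cells replace the cutting subunits with PSMB8, PSMB9 and PSMB10, which form the immunoproteasome and shift the peptides made for antigen presentation. Genes for the constitutive subunits are known to be transcribed together, and NFE2L1 is a transcription factor that raises them when proteasome activity is short.

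Values are deposited FPKM, a read measure divided by transcript length and by the size of the library. USP32 itself had 2.0, 1.88 and 2.01 FPKM in the siUSP32 libraries, against 7.5, 7.48 and 8.32 FPKM in the siControl libraries, so its transcript was 3.96-fold lower where the label says it was targeted (limma adjusted p = 8.57e-08). The summed FPKM of all listed genes was 855573 to 948641 in siUSP32 and 686376 to 694831 in siControl, without overlap. A difference in FPKM therefore depends on whether libraries are first brought to a common sum. VIM, a mesenchymal marker of this line, had 1628 to 1715 FPKM in siUSP32 and 1077 to 1098 FPKM in siControl. The other markers chosen as high in this line, CD44 and CAV1, went the other way. CD44 had 131 to 138 FPKM in siUSP32 and 423 to 426 FPKM in siControl, 3.15-fold lower. CAV1 had 242 to 285 FPKM in siUSP32 and 299 to 301 FPKM in siControl, 1.12-fold lower. ERBB2, which such lines express weakly, had 3.54 to 3.64 FPKM in siUSP32 and 11.7 to 12.2 FPKM in siControl. EPCAM and ESR1, also chosen as low or absent, had 3.89 to 4.85 and 0.09 to 0.33 FPKM in siUSP32. In siControl they had 9.61 to 12.1 and 0.4 to 0.63 FPKM. Of the markers of other cells, PTPRC (blood cells) was listed at 0 to 0.02 FPKM in siUSP32 and at 0 in every siControl library. PECAM1 (endothelium) had 0.39 to 0.42 FPKM in siUSP32 and 0.96 to 1.1 FPKM in siControl. COL1A1 (fibroblasts) had 0.75 to 0.89 FPKM in siUSP32 and 1.52 to 2.08 FPKM in siControl.

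Most proteasome genes were higher after USP32 knockdown. Of the 50 genes, 49 had a mean of at least 1 FPKM across all 6 libraries and were tested. The exception was PSMA8, the testis form of a core alpha subunit, which had 0.04 to 0.12 FPKM in siUSP32 and 0.04 to 0.08 FPKM in siControl. At an adjusted p under 0.05 (limma on log2(FPKM + 1), Benjamini-Hochberg adjustment over 12003 genes), 42 of the 49 rose and 3 fell, while 33.3% of all tested genes rose and 41.3% fell. The median difference, siUSP32 minus siControl, was 0.58 on the log2 scale for the 49 genes and -0.06 for all tested genes. For 44 of the 49 genes the libraries of the groups did not overlap, and in 41 of these siUSP32 was the higher group. Over all tested genes, 77.8% had groups that did not overlap, and 34.6% did so with siUSP32 higher. A fold of at least 1.5 in mean FPKM was reached by 26 of the 49 genes, against 13.7% of tested genes. An exact permutation test of a single gene with 3 against 3 libraries cannot give a 2-sided p below 0.1, and that was its value for the genes whose groups did not overlap.

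Summed over the 50 genes, the siUSP32 libraries held 10745, 11546 and 10791 FPKM and the siControl libraries 7189, 7160 and 7264 FPKM. As a share of the summed FPKM of each library, the proteasome genes took 1.23%, 1.22% and 1.26% in siUSP32 and 1.05%, 1.04% and 1.05% in siControl. The groups did not overlap on either measure, and the difference was smaller on the share. When every library was rescaled to the same sum (TPM), 30 of the 49 genes rose and 10 fell, against 14.3% and 62.1% of all tested genes. TPM here means FPKM divided by the sum of its library. The median was then 0.22 for the proteasome genes and -0.39 for all genes, so the distance between these medians was much the same as on FPKM. After quantile normalization, 38 rose and 3 fell, against 43.8% and 30.0% of all tested genes, and the medians were 0.28 and 0.10. Under median-ratio scaling 46 rose and 1 fell, against 40.9% and 34.7% of all tested genes. The median of the list lay above 0 under each of these scalings, but its distance from the rest of the genes was smallest under quantile normalization and under the correction for transcript length described below.

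**Figure D1:**
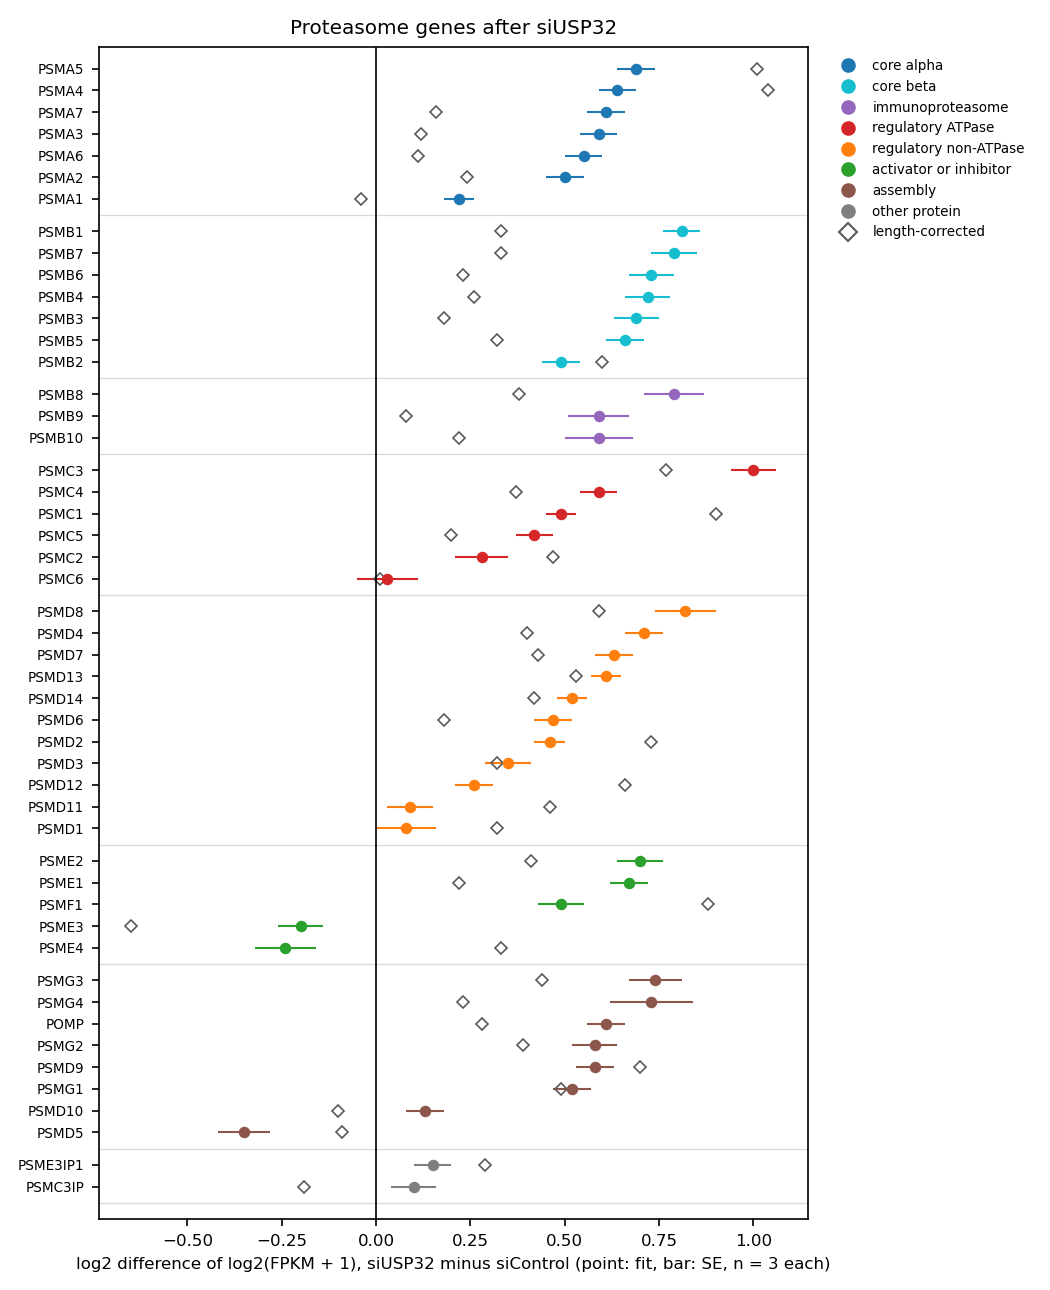
Log2 difference in FPKM, siUSP32 minus siControl, for each of the 49 tested genes by role, on a horizontal axis in log2 units. Filled points with bars give the limma estimate and its standard error on FPKM as deposited (n = 3 libraries each), and open diamonds give the difference after correction for transcript length. PSMC3 lies farthest to the right at 1.0, and PSMD5, PSME4 and PSME3 lie left of 0 on deposited FPKM.

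The rings of the core rose as a whole on deposited FPKM. All 7 tested alpha subunits and all 7 constitutive beta subunits passed the test as higher, with medians of 0.59 (range 0.22 to 0.69) and 0.72 (range 0.49 to 0.81) on the log2 scale. Of all tested genes 33.3% passed as higher. The alpha subunits form the outer rings that gate entry to the barrel. PSMA5 had 72.8, 74.4 and 75.5 FPKM in siUSP32, against 45.9, 46.0 and 44.8 FPKM in siControl. These groups were far apart relative to their spread, with a 1.63-fold difference (log2 0.69 ± 0.05 SE, limma adjusted p = 1.09e-06). PSMA4 had 271, 292 and 265 FPKM in siUSP32, against 176, 176 and 178 FPKM in siControl, a 1.56-fold difference (log2 0.64 ± 0.05 SE, limma adjusted p = 3.9e-06). PSMA1 moved least of the alpha subunits, with 271, 261 and 269 FPKM in siUSP32 and 229.7, 231 and 227 FPKM in siControl. Its 1.16-fold rise (log2 0.22 ± 0.04 SE, limma adjusted p = 0.00154) turned to a fall of 0.15 under TPM, with an adjusted p of 0.0364 from limma, and lay at -0.04 after length correction, where it did not pass the test. The other alpha subunits rose between 1.42-fold in PSMA2 and 1.53-fold in PSMA7, with PSMA6 at 1.47-fold and PSMA3 at 1.5-fold. PSMA3 and PSMA6 were no longer past the threshold after length correction (log2 0.12 and 0.11), nor was PSMA7 after quantile normalization (log2 0.07).

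Among the beta subunits, PSMB1, a structural beta subunit, had 657, 702 and 667 FPKM in siUSP32, against 391, 378 and 388 FPKM in siControl. This was 1.75-fold higher (log2 0.81 ± 0.05 SE, limma adjusted p = 6.07e-07). PSMB7, the subunit with trypsin-like activity, had 827, 933 and 849 FPKM in siUSP32, against 509, 496 and 502 FPKM in siControl, 1.73-fold higher (log2 0.79 ± 0.06 SE, limma adjusted p = 2.09e-06). PSMB2, another structural subunit, showed the smallest beta difference at 101, 99.3 and 95.5 FPKM in siUSP32 and 70.1, 69.3 and 69.8 FPKM in siControl, a fold of 1.41 (log2 0.49 ± 0.05 SE, limma adjusted p = 1.06e-05). The other catalytic subunits lay between them. PSMB5, with chymotrypsin-like activity, had 331, 371 and 340.5 FPKM in siUSP32, against 217, 222 and 220.4 FPKM in siControl, a fold of 1.58 (log2 0.66 ± 0.05 SE, limma adjusted p = 5.16e-06). PSMB6, with caspase-like activity, had 361, 413 and 359.8 FPKM in siUSP32, against 235, 221 and 226 FPKM in siControl, a fold of 1.66 (log2 0.73 ± 0.06 SE, limma adjusted p = 7.48e-06). The groups did not overlap in either gene, and the siUSP32 library numbered 2 was the highest in both. PSMB3 and PSMB4, both structural, rose 1.62-fold and 1.65-fold. Under TPM, PSMB2 alone of the constitutive beta subunits no longer passed the test (log2 0.13).

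The 3 immunoproteasome subunits also rose, from levels far under those of the constitutive subunits they replace. PSMB8, which takes the place of PSMB5, had 55.4, 66.1 and 55.8 FPKM in siUSP32, against 34.4, 35.3 and 31.2 FPKM in siControl, a fold of 1.76 (log2 0.79 ± 0.08 SE, limma adjusted p = 1.76e-05). PSMB9, which takes the place of PSMB6, had 43.6, 53.7 and 44.0 FPKM in siUSP32, against 31.1, 30.1 and 31.6 FPKM in siControl, a fold of 1.52 (log2 0.59 ± 0.08 SE, limma adjusted p = 0.00014). PSMB10, which takes the place of PSMB7, had 43.8, 56.6 and 47.3 FPKM in siUSP32, against 32.8, 31.0 and 33.0 FPKM in siControl, a fold of 1.53 (log2 0.59 ± 0.09 SE, limma adjusted p = 0.000244). In all 3 genes the siUSP32 library numbered 2 was the highest, and every siUSP32 library lay above every siControl library. After length correction PSMB9 lay at 0.08 and did not pass the test, while PSMB8 and PSMB10 did.

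The share of immune among catalytic transcripts did not separate the groups. PSMB8, PSMB9 and PSMB10 together made up 8.59%, 9.32% and 8.67% of the FPKM of the 6 catalytic subunits in siUSP32, and 9.27%, 9.3% and 9.18% in siControl, so the groups overlapped. The individual pairs went different ways. The ratio of PSMB8 to PSMB5 was 0.167, 0.178 and 0.164 in siUSP32 and 0.158, 0.159 and 0.142 in siControl. PSMB9 over PSMB6 was 0.121, 0.13 and 0.122 in siUSP32, against 0.132, 0.136 and 0.14 in siControl, and PSMB10 over PSMB7 was 0.0529, 0.0607 and 0.0557 in siUSP32, against 0.0644, 0.0624 and 0.0659 in siControl. None of these ratios overlapped between the groups, with PSMB8 higher and PSMB9 and PSMB10 lower relative to their partners after knockdown, although the exact permutation p of such a ratio cannot go below 0.1 with 3 against 3 libraries. These ratios are free of the library sum, since both genes of a pair come from the same library. They are not free of other scalings. After quantile normalization PSMB9 rose by 0.55 on the log2 scale and PSMB6 by 0.40, and PSMB10 by 0.54 and PSMB7 by 0.24. The order of both these pairs was thus turned, while PSMB8 (log2 0.72) still rose more than PSMB5 (log2 0.33).

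**Figure D2:**
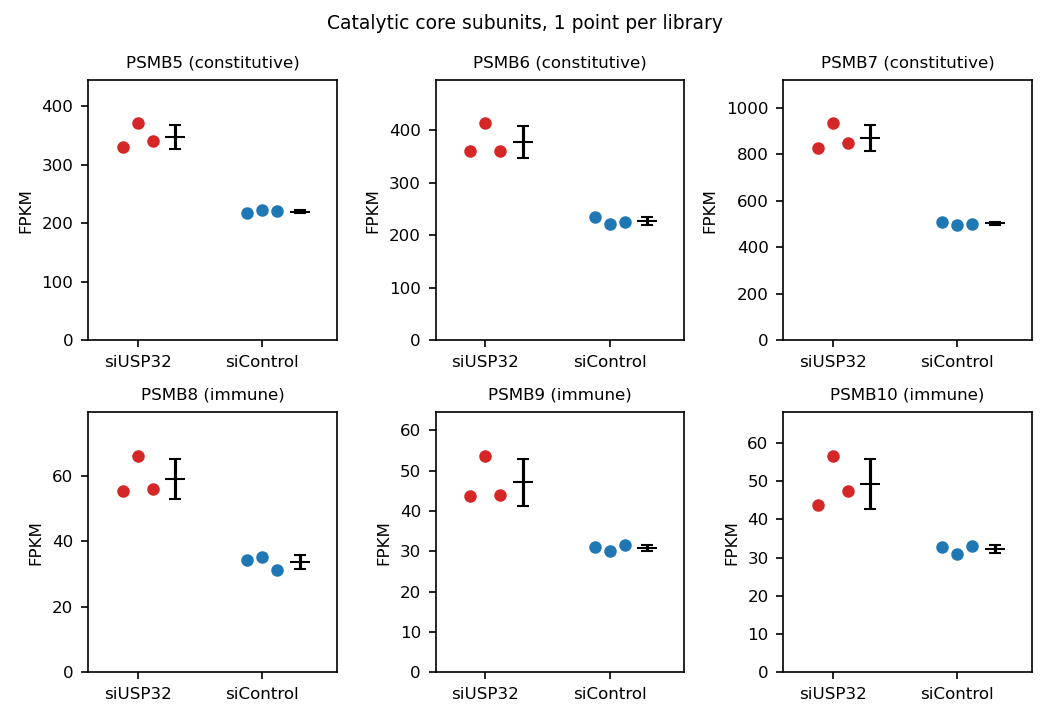
FPKM per library of the constitutive catalytic subunits and of the immune subunits that replace them, with siUSP32 libraries to the left of siControl libraries in each gene. Each panel has its own FPKM axis from 0, points are libraries, and the bar beside them gives the mean and SD. The siUSP32 points lie above the siControl points in all 6 genes, and PSMB8 reaches the highest immune value at 66.1 FPKM.

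PSMB8 and PSMB9 lie beside the peptide transporter genes TAP1 and TAP2 in the class II region of the major histocompatibility complex on chromosome 6. On GRCh38, PSMB8 is annotated at chr6:32840717-32844703 on the minus strand, PSMB9 at chr6:32844136-32859585 on the plus strand and TAP1 at chr6:32845209-32853978 on the minus strand. PSMB9 and TAP1 are known to be transcribed away from each other from a shared promoter region. Exons of PSMB8 and PSMB9 overlap on opposite strands, and how strand was counted is not given, so their values are uncertain to the extent that such reads were shared. TAP1 had 9.84, 9.97 and 9.85 FPKM in siUSP32, against 27.2, 26.0 and 27.1 FPKM in siControl, 2.71-fold lower (log2 -1.35 ± 0.05 SE, limma adjusted p = 3.62e-08). Neighbours in this locus therefore moved in opposite directions on deposited FPKM. The ratio of PSMB9 to TAP1 was 4.43, 5.39 and 4.46 in siUSP32 and 1.14, 1.16 and 1.17 in siControl. After length correction the rise of PSMB9 did not pass the test (log2 0.08, limma adjusted p = 0.187), while TAP1 was still called lower (log2 -1.19). TAP2, the partner of TAP1 in the transporter, was 4.75-fold lower (log2 -1.95 ± 0.08 SE, limma adjusted p = 5.06e-08). The promoter windows of the PSMB9 and TAP1 pair, each from 250 bases before to 50 bases after the RefSeq start on GRCh38.p14, are shown because these genes share a promoter region and moved apart. The PSMB9 window is chr6:32853942-32854241 on the plus strand and the TAP1 window is chr6:32853655-32853954 on the minus strand. Capitals mark a match to TGACNNNGC on either strand, the core letters of the antioxidant response element that NFE2L1 binds with small Maf proteins.
PSMB9: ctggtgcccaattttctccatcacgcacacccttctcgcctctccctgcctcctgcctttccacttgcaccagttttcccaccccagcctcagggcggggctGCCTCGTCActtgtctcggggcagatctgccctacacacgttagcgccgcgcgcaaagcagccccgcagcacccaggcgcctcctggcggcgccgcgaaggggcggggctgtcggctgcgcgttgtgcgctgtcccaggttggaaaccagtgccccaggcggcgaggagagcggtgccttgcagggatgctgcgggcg
TAP1: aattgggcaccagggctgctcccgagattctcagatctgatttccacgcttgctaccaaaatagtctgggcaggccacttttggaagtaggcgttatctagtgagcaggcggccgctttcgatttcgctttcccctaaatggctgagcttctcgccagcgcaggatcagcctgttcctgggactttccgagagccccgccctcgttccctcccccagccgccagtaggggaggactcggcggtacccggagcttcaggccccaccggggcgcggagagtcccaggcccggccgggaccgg
The start sites are 488 bases apart and the windows share 13 bases. The PSMB9 window holds 1 match, on the opposite strand, and these letters are not in the TAP1 window.

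In the regulatory particle, 14 of 17 subunits rose and none fell, with 3 that did not pass the test. Over all tested genes 33.3% rose and 41.3% fell. The 6 ATPases form the ring that unfolds substrates, and 5 of them rose (median 0.46 on the log2 scale). PSMC3 had 229.9, 259.8 and 238 FPKM in siUSP32, against 124, 117 and 121 FPKM in siControl. This 2.0-fold difference (log2 1.0 ± 0.06 SE, limma adjusted p = 4.72e-07) was the largest of the 49 genes on deposited FPKM, and PSMC3 also rose under TPM (log2 0.63), quantile normalization (log2 0.70) and length correction (log2 0.77). PSMC4 had 118, 131 and 119.9 FPKM in siUSP32, against 80.7, 81.3 and 81.6 FPKM in siControl, a fold of 1.52 (log2 0.59 ± 0.05 SE, limma adjusted p = 8.18e-06). PSMC6 stood apart from its ring partners. It had 52.6, 43.9 and 52.9 FPKM in siUSP32 and 46.7, 47.8 and 51.3 FPKM in siControl, with overlapping groups and a log2 difference of 0.03 ± 0.08 (SE, limma adjusted p = 0.727). The siUSP32 library numbered 2 was the lowest of all 6 for PSMC6 and the highest for PSMC3. The other ATPases rose 1.41-fold in PSMC1, 1.34-fold in PSMC5 and 1.22-fold in PSMC2. Under TPM these 3 genes did not pass the test (log2 0.12, 0.05 and -0.08). With that scaling 2 of the 6 ATPases passed the test as higher, against 14.3% of all tested genes. PSMC6 fell (log2 -0.33), as did 62.1% of all tested genes, whose median was -0.39.

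The non-ATPase subunits form the lid and the ubiquitin receptors, and 9 of 11 rose (median 0.47, range 0.08 to 0.82 on the log2 scale). Of all tested genes 33.3% rose. PSMD8, a lid subunit, had 535, 633 and 515 FPKM in siUSP32, against 315, 324 and 307 FPKM in siControl, a fold of 1.78 (log2 0.82 ± 0.08 SE, limma adjusted p = 1.12e-05). PSMD4, a receptor for ubiquitin chains, had 261, 286 and 265 FPKM in siUSP32, against 163, 164 and 166 FPKM in siControl, a fold of 1.65 (log2 0.71 ± 0.05 SE, limma adjusted p = 1.84e-06). The large scaffold subunit PSMD1 had 69.4, 59.3 and 75.8 FPKM in siUSP32 and 63.1, 64.0 and 65.1 FPKM in siControl, with overlapping groups and a log2 difference of 0.08 ± 0.08 (SE, limma adjusted p = 0.389). PSMD11, a lid subunit, likewise did not pass the test (log2 0.09, limma adjusted p = 0.164). Both are called in opposite directions under the alternatives, as lower under TPM (log2 -0.29 and -0.27) and as higher after length correction (log2 0.32 and 0.46). PSMD14, the enzyme that removes ubiquitin chains from arriving substrates, rose by 0.52 on the log2 scale, and the lid subunits PSMD7 and PSMD13 rose by 0.63 and 0.61. PSMD2, PSMD3, PSMD6 and PSMD12 rose by 0.46, 0.35, 0.47 and 0.26 on deposited FPKM but did not pass the test under TPM (log2 0.09, -0.02, 0.10 and -0.11). Under TPM, 5 of the 11 non-ATPase subunits passed as higher, against 14.3% of all tested genes.

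The activators and the inhibitor split. PSME1 and PSME2, which form the interferon-inducible ring that opens the core without ATP, both rose. PSME2 had 432, 477 and 425 FPKM in siUSP32, against 267, 269 and 281 FPKM in siControl, a fold of 1.63 (log2 0.70 ± 0.06 SE, limma adjusted p = 4.59e-06). PSME1 had 335, 347 and 324 FPKM in siUSP32, against 217, 208 and 206 FPKM in siControl, a fold of 1.6 (log2 0.67 ± 0.05 SE, limma adjusted p = 2.12e-06). PSMF1, an inhibitor of the core, rose 1.43-fold (log2 0.49), but not past the threshold under TPM (log2 0.13).

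PSME3, the nuclear activator of the same family as PSME1 and PSME2, went the other way on deposited FPKM. It had 114, 101 and 118 FPKM in siUSP32, against 126, 128 and 127 FPKM in siControl, 1.15-fold lower (log2 -0.20 ± 0.06 SE, limma adjusted p = 0.0157). The groups did not overlap, and the difference was larger under TPM (log2 -0.57) and after length correction (log2 -0.65). It no longer passed the test under median-ratio scaling (log2 -0.06) or without the siControl library numbered 2 (limma adjusted p = 0.0504). PSME4, a large activator of nuclear proteasomes, had 17.8, 15.2 and 19.3 FPKM in siUSP32, against 20.4, 20.5 and 21.3 FPKM in siControl, 1.19-fold lower (log2 -0.24 ± 0.08 SE, limma adjusted p = 0.0229). Its direction depended on the processing. It was called higher after length correction (log2 0.33) and lost the call without any 1 of the siControl libraries (limma adjusted p of 0.0501, 0.0541 and 0.0749 without the libraries numbered 1, 2 and 3).

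Of the 8 assembly factors, 7 rose and 1 fell, against 33.3% and 41.3% of all tested genes. The chaperones of the core, PSMG1 to PSMG4 and the maturation factor POMP, all rose, with log2 differences between 0.52 and 0.74. PSMG3 had 88.3, 106 and 88.6 FPKM in siUSP32, against 54.2, 55.8 and 58.0 FPKM in siControl, a fold of 1.68 (log2 0.74 ± 0.07 SE, limma adjusted p = 1.91e-05). PSMG4, its partner, had 14.4, 16.6 and 14.5 FPKM in siUSP32, against 9.95, 9.2 and 7.26 FPKM in siControl, a fold of 1.72 (log2 0.73 ± 0.11 SE, limma adjusted p = 0.000219), but lay at 0.23 and did not pass the test after length correction. The chaperones of the ATPase ring did not share a direction. PSMD9 rose 1.51-fold (log2 0.58). PSMD10, also called gankyrin, had 77.8, 73.7 and 80.8 FPKM in siUSP32 and 68.5, 69.2 and 73.7 FPKM in siControl, a log2 difference of 0.13 that barely passed the test (limma adjusted p = 0.0494) and kept that call under 5 of 18 alternatives. PSMD5 had 30.1, 25.9 and 31.0 FPKM in siUSP32, against 36.7, 37.9 and 37.1 FPKM in siControl, 1.28-fold lower (log2 -0.35 ± 0.07 SE, limma adjusted p = 0.00137). PSMD5 was the largest fall of the 49 genes on deposited FPKM, and was not past the threshold after length correction (log2 -0.09).

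The 2 genes caught by symbol alone moved little. PSMC3IP, a meiotic recombination factor, had 20.1, 20.5 and 21.8 FPKM in siUSP32 and 20.6, 18.8 and 18.8 FPKM in siControl, with overlapping groups and a log2 difference of 0.10 (limma adjusted p = 0.176). PSME3IP1, a partner protein of PSME3, had 25.8, 27.7 and 27.1 FPKM in siUSP32 and 24.2, 24.6 and 23.3 FPKM in siControl, and rose by 0.15 on the log2 scale (limma adjusted p = 0.0264). Both passed as lower under TPM.

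The libraries of the siUSP32 group spread more than those of siControl. The median coefficient of variation of the 49 genes was 5.15% in siUSP32 and 2.36% in siControl. The siUSP32 library numbered 2 was the highest of its group for 31 of the 49 genes and the lowest for 11, among them PSMC6, PSMD1, PSME3, PSME4 and PSMD5. It also had the largest summed FPKM of all libraries (948641). As a share of that sum its proteasome genes were the lowest of the group, at 1.22% against 1.23% and 1.26%. Without this library the difference in the 49 genes had a median of 0.53 on the log2 scale, against 0.58 with it.

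Core transcripts lay further above regulatory transcripts in siUSP32 than in siControl. The median FPKM of the 14 constitutive core genes was 346, 383 and 350.0 in siUSP32, against 232, 227 and 226 in siControl, and that of the 17 regulatory particle genes was 152, 159 and 155 in siUSP32, against 115, 113 and 112 in siControl. The ratio of these medians was 2.27, 2.4 and 2.26 in siUSP32 and 2.02, 2.01 and 2.03 in siControl, so the groups did not overlap. The regulatory genes also became less even among themselves, with an SD of log2 FPKM of 1.06, 1.17 and 1.04 in siUSP32 and 0.887, 0.885 and 0.862 in siControl. The core genes did so to a smaller extent, with 1.08, 1.13 and 1.08 in siUSP32 and 1.05, 1.04 and 1.05 in siControl, again without overlap. The order of core and regulatory genes depended on the treatment of transcript length, as the median log2 difference was 0.65 for the core and 0.47 for the regulatory particle on deposited FPKM, and 0.25 and 0.43 after length correction. The regulatory genes have the longer transcripts, with a median of 1991 bases against 1012 for the core, and the corrected values of the proteasome genes rose with length, by 0.211 per doubling. Whether the log2 differences of these groups of genes differ from each other was not tested.

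Transcript length moved with the differences. Across the 11957 tested genes with a GENCODE transcript, the log2 difference declined by 0.341 for each doubling of transcript length (Pearson r = -0.448), and across the 49 proteasome genes by 0.176 (Pearson r = -0.484, Spearman rho = -0.544). These correlations are across genes of the same 6 libraries, which are not independent replicates, and are given as a description. Proteasome transcripts are short, with a median of 1553 bases (range 773 to 7099) against 3054 bases for all tested genes. In bins drawn after the values were seen, the 22 proteasome genes of up to 1500 bases had a median log2 difference of 0.66, against 0.49 for all 1652 genes of that length. The 16 from 1500 to 3000 bases had a median of 0.52, against 0.12 for 4200 genes, and the 11 above 3000 bases had 0.28, against -0.31 for 6105 genes.

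When each library was corrected for its dependence on transcript length, by a smooth curve through all genes, 39 of the 49 genes rose and 2 fell, against 44.7% and 28.5% of all genes tested. The median was 0.33 for the proteasome genes and 0.11 for all genes. With the shortest principal transcript of each gene in place of the longest-coding one, a choice made after seeing the data, 42 rose and 2 fell, against 45.1% and 28.8%. All 7 constitutive beta subunits and all 11 non-ATPase subunits passed as higher with either transcript, as did 5 of 6 ATPases. With the longest-coding transcript 5 of 8 assembly factors, 4 of 7 alpha subunits and 2 of 3 immune subunits passed as higher, and with the shortest 6, 6 and 3 of them did. Over all genes the correction left a slope of -0.0018 per doubling of length, but among the 49 proteasome genes it left a rise of 0.211 per doubling (Pearson r = 0.547, Spearman rho = 0.59), so the relation with length turned round there and was not removed. PSMA4 shows how the result of the correction rests on the transcript chosen, with a log2 difference of 1.04 by its longest-coding transcript and 0.30 by its shortest, both called higher. PSMA5, PSMC1 and PSMF1 also lay higher after the correction by the longest-coding transcript (log2 1.01, 0.90 and 0.88) than before it. The part that length plays in the differences was not tested beyond this correction.

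**Figure D3:**
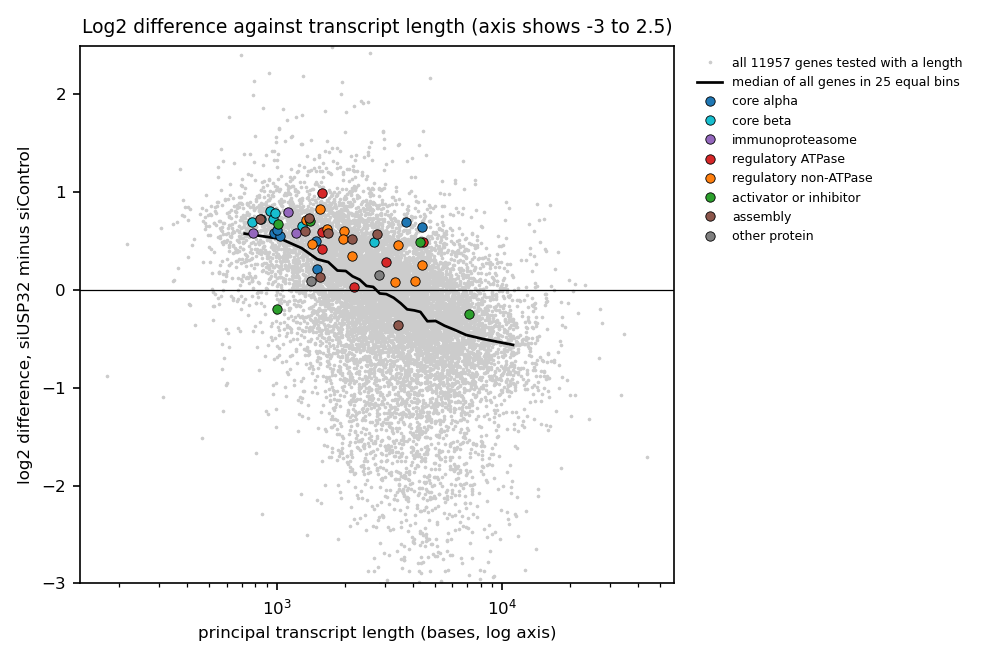
Log2 difference on deposited FPKM, siUSP32 minus siControl, against the length of the principal transcript on a log axis, with each tested gene as a grey point, the proteasome genes as coloured points by role, and a line for the median of all genes in bins of equal size; genes beyond the axis are not drawn. Differences fall with length over all genes, and 22 of the 49 proteasome genes have transcripts of up to 1500 bases.

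**Figure D4:**
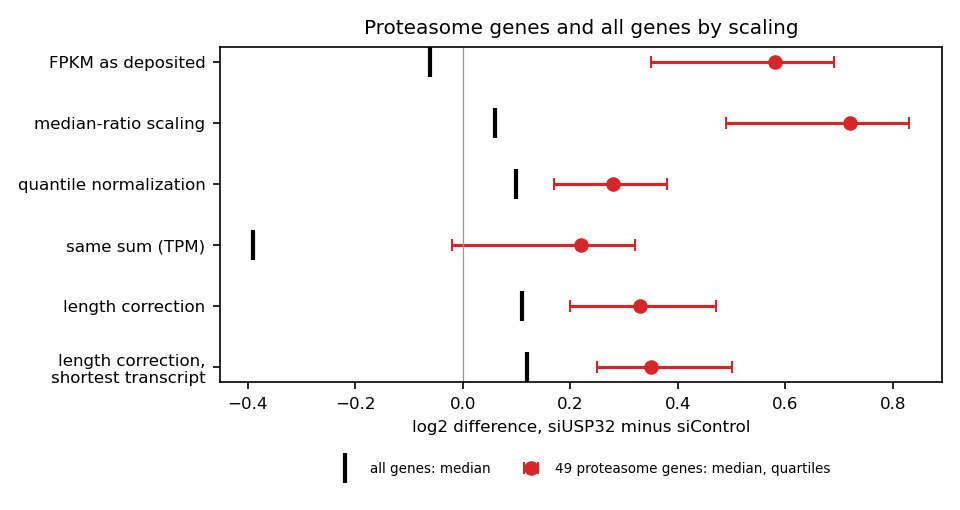
Median log2 difference of the 49 proteasome genes and of all tested genes under the deposited FPKM, alternative scalings and the length corrections, with bars from the lower to the upper quartile of the proteasome genes and a black mark for the median of all genes. The proteasome median lies above the median of all genes in each row, by 0.64 on deposited FPKM and by 0.22 after length correction.

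Genes that work around the proteasome moved both ways on deposited FPKM. Of 44 tested genes from 5 lists of bound proteins, shuttle and unfolding factors, ubiquitin supply, regulators and interferon-linked genes, 19 rose and 15 fell, with a median of 0.06 on the log2 scale. This is 43.2% higher, against 33.3% of all tested genes, while 41.3% of all tested genes fell. After length correction 30 rose and 5 fell, against 44.7% and 28.5% of all genes, and under TPM 10 rose and 24 fell, against 14.3% and 62.1%. Among the bound proteins, 5 of 11 rose and 3 fell on deposited FPKM. ADRM1, the ubiquitin receptor that docks on the regulatory particle, had 326, 395 and 304 FPKM in siUSP32, against 169.8, 163 and 176 FPKM in siControl, a fold of 2.01 (log2 1.0 ± 0.09 SE, limma adjusted p = 8.53e-06). TXNL1, a thioredoxin-like protein bound to the regulatory particle, rose 1.25-fold (log2 0.32), but lay at -0.05 under TPM. USP14, a ubiquitin-removing enzyme of the regulatory particle, was 1.3-fold lower (log2 -0.37), and ECPAS, an adaptor that clamps the core to the regulatory particle, was 1.25-fold lower (log2 -0.31). After length correction USP14 did not pass the test (log2 0.08), and ECPAS was called higher (log2 0.26, limma adjusted p = 0.00206).

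Shuttle and unfolding factors that bring substrates to the proteasome had 5 of 13 higher and 5 lower on deposited FPKM, 38.5% higher against 33.3% of all tested genes. After length correction 9 were higher and 2 lower, and under TPM 4 were higher and 8 lower. UBXN1 and UFD1, cofactors of the unfolding ATPase VCP, rose 1.75-fold and 1.51-fold. FAF2, a VCP adaptor at the endoplasmic reticulum, had 15.4, 13.3 and 17.1 FPKM in siUSP32, against 42.3, 43.8 and 43.8 FPKM in siControl, 2.84-fold lower (log2 -1.45 ± 0.08 SE, limma adjusted p = 3.92e-07). UBXN7, another VCP adaptor, was 1.95-fold lower (log2 -0.80), but not past the threshold after length correction (log2 -0.14). UBA6, a ubiquitin-activating enzyme, was 1.43-fold lower (log2 -0.47) but lay at 0.17 on the log2 scale after length correction.

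NFE2L1, the transcription factor known to raise proteasome genes, was lower while most of these genes were higher. It had 14.6, 13.9 and 14.7 FPKM in siUSP32, against 64.5, 65.2 and 66.7 FPKM in siControl, 4.55-fold lower (log2 -2.11 ± 0.05 SE, limma adjusted p = 2.95e-09). It was lower under all 18 alternatives, with a log2 difference of -1.67 after length correction. These values are of its transcript, and the level or processing of the protein was not measured. Of the 9 regulators, 4 rose (44.4%) and 3 fell on deposited FPKM, against 33.3% and 41.3% of all tested genes. After length correction 6 rose and 1 fell, and under TPM 1 rose and 5 fell. MAFF and MAFK, small Maf proteins that can pair with NFE2L1, rose 1.91-fold and 1.37-fold. BACH1, a repressor at the same elements, was 1.33-fold lower but lay at 0.14 after length correction. Of the 5 interferon-linked genes, IRF1, a transcription factor that switches on immunoproteasome genes, was the 1 that rose, by 1.39-fold, and 3 fell. This is 20.0% higher, against the same 33.3% of all tested genes. After length correction 2 rose and 2 fell, and under TPM 0 rose and 4 fell.

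**Figure D5:**
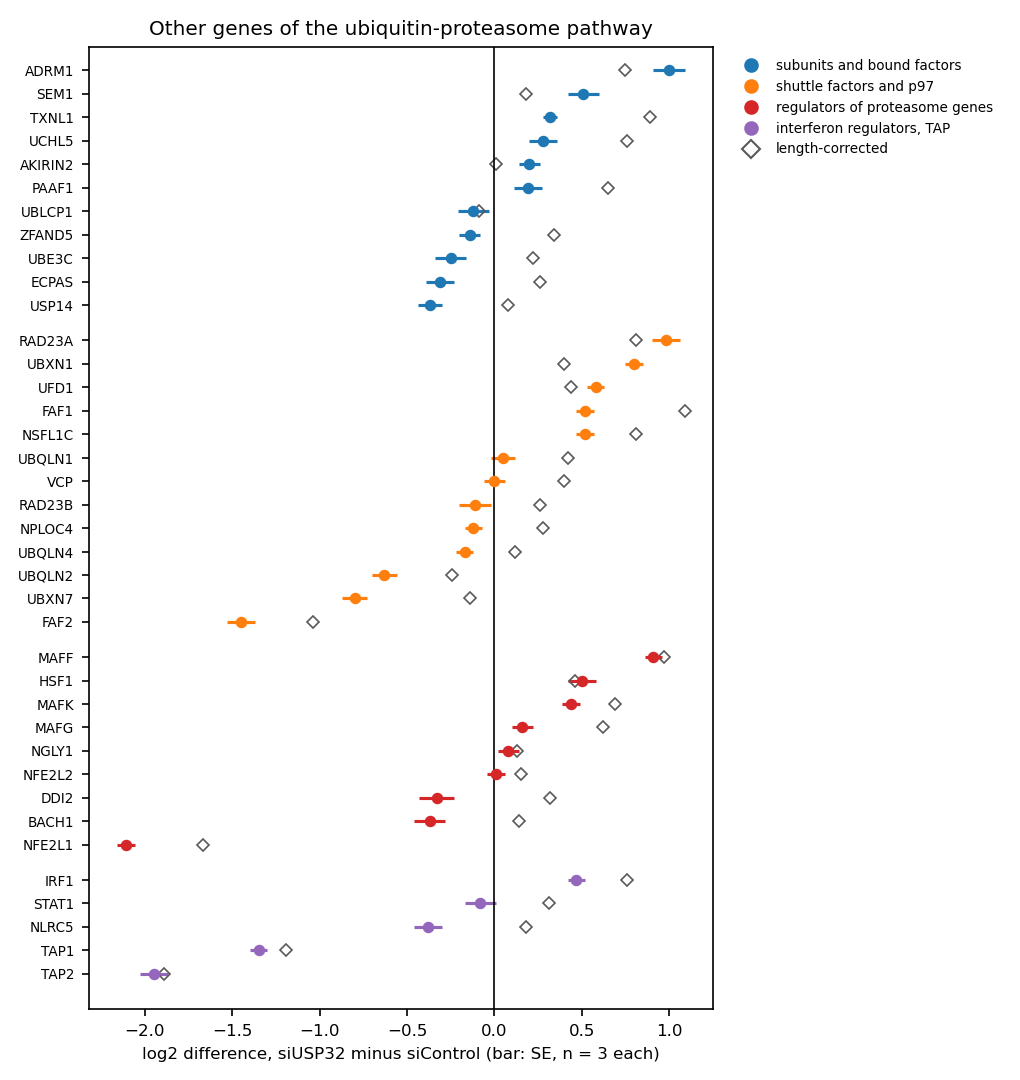
Log2 difference, siUSP32 minus siControl, of the bound proteins, shuttle and unfolding factors, regulators and interferon-linked genes, with points and standard-error bars for deposited FPKM and open diamonds for values after length correction. NFE2L1 lies farthest left at -2.11 and ADRM1 is the farthest right of the filled points at 1.0.

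The promoters of proteasome genes were searched for the letters that NFE2L1 binds. RefSeq promoter windows on GRCh38.p14 were matched by gene identifier for 44 of the 50 genes, with 55 windows in all. PSMA7, PSMB1, PSMB6, PSMB7, PSMD4 and PSMG3 had no window and are left out of the shares below. TGACNNNGC on either strand was found in 15 of these 44 genes (34.1%), against 19.5% of 9860 tested genes and 16.1% of all 27305 genes with a window. The share was uneven by role. A match was found in 1 of 7 core alpha, 1 of 4 core beta, 1 of 3 immune, 2 of 6 ATPase and 3 of 10 non-ATPase genes. It was found in 3 of 5 activator or inhibitor genes, 4 of 7 assembly genes and 0 of 2 genes caught by symbol alone. The 17 matches lay between positions -183 and 40 relative to the start, and 14 of them lay before it. A gene was counted when any of its windows held a match. PSMC5 and PSMG2, whose matching windows are printed below, each have another window without a match. Windows of 4 genes are printed, as examples of a match in a core gene, an ATPase gene, a lid gene with a match on each side of the start, and an assembly gene, with each match in capitals. They are chr17:38752491-38752790 for PSMB3, chr17:63827471-63827770 for PSMC5, chr17:39980557-39980856 for PSMD3 and chr18:12658488-12658787 for PSMG2, all on the plus strand.
PSMB3: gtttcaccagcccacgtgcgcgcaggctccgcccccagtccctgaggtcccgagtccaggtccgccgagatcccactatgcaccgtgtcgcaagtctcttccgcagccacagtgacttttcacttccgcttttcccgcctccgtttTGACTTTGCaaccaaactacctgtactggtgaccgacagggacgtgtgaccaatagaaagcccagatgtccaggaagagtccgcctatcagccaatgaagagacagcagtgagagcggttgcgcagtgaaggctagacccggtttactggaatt
PSMC5: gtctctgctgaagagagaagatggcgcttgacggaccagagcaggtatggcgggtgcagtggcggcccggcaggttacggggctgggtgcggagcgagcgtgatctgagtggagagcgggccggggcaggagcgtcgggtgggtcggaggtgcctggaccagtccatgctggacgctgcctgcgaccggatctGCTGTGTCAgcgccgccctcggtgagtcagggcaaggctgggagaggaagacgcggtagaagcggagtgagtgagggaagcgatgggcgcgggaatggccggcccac
PSMD3: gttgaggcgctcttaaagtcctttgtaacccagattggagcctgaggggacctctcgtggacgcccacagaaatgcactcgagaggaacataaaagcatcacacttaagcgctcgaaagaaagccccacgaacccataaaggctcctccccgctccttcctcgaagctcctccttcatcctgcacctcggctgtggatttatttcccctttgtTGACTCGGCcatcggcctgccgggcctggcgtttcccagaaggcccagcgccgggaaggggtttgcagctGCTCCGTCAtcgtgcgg
PSMG2: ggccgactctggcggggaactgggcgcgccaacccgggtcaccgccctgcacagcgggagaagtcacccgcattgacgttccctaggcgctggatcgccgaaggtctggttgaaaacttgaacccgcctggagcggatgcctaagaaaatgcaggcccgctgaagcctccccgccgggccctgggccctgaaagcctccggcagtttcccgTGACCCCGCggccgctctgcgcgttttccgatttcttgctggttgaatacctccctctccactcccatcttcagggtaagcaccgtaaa
On deposited FPKM the log2 differences of these genes were 0.69 for PSMB3, 0.42 for PSMC5, 0.35 for PSMD3 and 0.58 for PSMG2. Genes with a match did not all rise. PSMD5 and PSME4 hold one and fell (log2 -0.35 and -0.24). PSMD1 holds one and did not pass the test (log2 0.08). The remaining genes with a match passed the test as higher, and PSME3, which also fell, has none. Most genes without a match rose as well. Of the 49 tested proteasome genes 42 passed as higher (85.7%), and whether a match goes with a rise was not tested. A match in a window is a description of its letters and not of a bound site.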

How the data were processed

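RNA was extracted with Trizol and sequenced on an MGISEQ-2000 platform, per the labels' protocols. The authors deposited FPKM values, 1 table per library with the same genes. The submitters' processing notes name GRCh38.p13 as build. Not given in the sources used here are the aligner, counter, annotation, strand handling and treatment of multiply matching reads, and the read depth is unknown, so no counting interval is given. Of the 50 proteasome genes, 10 have named pseudogenes and 14 overlap exons of a listed gene on the opposite strand, and their values are uncertain to that extent.

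The analysis used log2(FPKM + 1) of the 12003 of 17646 genes whose mean reached 1 FPKM, with limma 3.58.1 in R 4.3.3 (2-sided, trend in the variance, no covariates), checked on simulated data. This scale understates changes of low values. Folds are ratios of mean FPKM. Transcript lengths came from the GENCODE 29 principal transcript with the longest coding sequence, which need not be the length the authors used, and the correction was a loess curve (span 0.5) per library. Rescaling to TPM was computed from the deposited FPKM. Promoters came from RefSeq GRCh38.p14. In each role the genes with the 2 largest differences and the smallest were described in every library, with all catalytic subunits and all genes that fell. For the surrounding lists, up to 2 called genes in each direction with the smallest adjusted p were named, except in the ubiquitin list, where some are not reported here. The genes, lists and rules were chosen with earlier results of these data known. Alternatives were another pseudocount, filters, scalings, the trend, array weights, a replicate block and leaving out each library, and a length correction with the shortest principal transcript was added after seeing the data.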

Additional observations from a re-analysis of the deposited data

How the results depend on the processing

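The count of proteasome genes that rose stayed between 30 and 46 of 49 under the alternatives, and was 40 to 45 when 1 library was left out. The count that fell was 10 under TPM, 1 under median-ratio scaling and 1 to 3 when 1 library was left out, with 1 without the siControl library numbered 2. Over all 12003 tested genes, 1716 rose and 7453 fell under TPM. With a minimum mean FPKM of 5 fewer genes were tested, and 3068 of 8645 fell. With length correction 4 core alpha subunits rose. Under TPM, 2 ATPases and 5 non-ATPase subunits rose, against 14.3% of all tested genes. Of the 2 genes that share only a symbol stem, 0 rose under TPM and with the shortest transcript, 2 under median-ratio scaling and quantile normalization, and 0 to 1 when 1 library was left out. Of the surrounding genes, 10 rose and 24 fell under TPM, 30 rose and 5 fell after length correction with or without the replicate block, and 31 rose and 6 fell with the shortest transcript.

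Signs turned for these genes among the proteasome genes and the surrounding genes named in the text, given as log2 differences. Under TPM the values were -0.15 for PSMA1, -0.08 for PSMC2, -0.33 for PSMC6, -0.29 for PSMD1, -0.02 for PSMD3, -0.27 for PSMD11, -0.11 for PSMD12, -0.23 for PSMD10, -0.26 for PSMC3IP, -0.21 for PSME3IP1 and -0.05 for TXNL1. Under quantile normalization they were -0.12 for PSMA1, -0.09 for PSMC6, -0.07 for PSMD1 and -0.03 for PSMD10. After length correction, with and without the block, they were -0.04 for PSMA1, 0.33 for PSME4, -0.10 for PSMD10, -0.19 for PSMC3IP, 0.08 for USP14, 0.26 for ECPAS, 0.17 for UBA6 and 0.14 for BACH1. With the shortest transcript they were -0.12 for PSMC6, 0.35 for PSME4, -0.03 for PSMD10, -0.12 for PSMC3IP, -0.23 for PSME3IP1, 0.11 for USP14, 0.29 for ECPAS, 0.19 for UBA6 and 0.17 for BACH1. Among surrounding genes not named above, the sign of a called gene also turned for UBE3C, UBQLN4, NPLOC4, DDI2 and NLRC5 after length correction (0.22, 0.12, 0.28, 0.32 and 0.18, against -0.25, -0.17, -0.12, -0.33 and -0.38 on deposited FPKM), for UCHL5, AKIRIN2 and MAFG under TPM (-0.09, -0.16 and -0.17), for DDI2 and NLRC5 under quantile normalization (0.05 and 0.02) and for NPLOC4 under median-ratio scaling (0.01). PSMC6 ranged from -0.01 to 0.12 when 1 library was left out, and was -0.01 without the siUSP32 library numbered 1 and likewise without that numbered 3. The cause of these changes was not tested beyond what each alternative alters by construction.

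The correlations of same-numbered deviations were weak, at -0.0766, 0.0706 and 0.119, and those of other-numbered libraries ran from -0.158 to 0.1. Such weak values show no strong shared signal but cannot tell whether the replicate numbers pair the libraries. With the replicate number as a block, 41 proteasome genes rose and 3 fell. Limits are the unknown depth, a summed FPKM that differs between the groups, a transcript length that moves with the differences, and 3 libraries a group of unstated origin.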
